A study of Schizosaccharomyces pombe with 6 samples.

Results

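The right end of chromosome II of the fission yeast Schizosaccharomyces pombe is described here as the last 100 kb that the arrays covered, from position 4391963 to 4491963 in the coordinates of the array files. Its members were all 324 non-control probes with their middle in that interval, of 42641 nuclear probes on each array. Membership was set by position and not by any measured value, although the interval was chosen with earlier results of these data known. What was measured was replication protein A (RPA), which binds and covers DNA while it is single-stranded, through chromatin immunoprecipitation (IP) of its subunit Ssb1. One strain was cdc25-22, which the labels call WT, and the other was cdc25-22 lacking rad3, called rad3Δ below. Both strains thus carried cdc25-22, a temperature-sensitive allele that stops cells before mitosis, so neither was wild type for the cell cycle. Cultures of both, kept at 25 °C, spent 4 h at 36.5 °C to block the cycle, were returned to 25 °C and then received hydroxyurea at 6 mM, an inhibitor of nucleotide synthesis. When they were harvested is not stated in the labels. There were 3 arrays per strain, each with the IP of 1 sample in one dye and its own input DNA in the other.

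The end ran from vma10 on its inner side to the space beyond gal1. The last probe covered 4491934 to 4491993, and 47.8 kb of the reference sequence, which includes the outermost subtelomere, lay beyond it without probes and were not analysed here. Neighbouring probes started a median of 267 bp apart, against 265 bp over the genome. The widest stretch without a probe, 5170 bp, held the retrotransposon gene Tf2-11. The reference annotation placed 31 protein-coding genes and 63 long non-coding RNAs in the interval. Of the protein-coding genes 27 held at least 2 probes, and 22 of the spaces between neighbouring genes did so. The 4 genes with fewer were vma10, Tf2-11, ecl3 and SPBPB2B2.07c.

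Rad3 is the fission yeast ATR, the kinase that responds to RPA-coated single-stranded DNA. When hydroxyurea starves replication forks of nucleotides, Rad3 acts through the kinase Cds1 to hold back origins that have not yet fired and to keep stalled forks intact. Origins of fission yeast lie in A+T-rich DNA between genes. Subtelomeric DNA is known for heterochromatin and for origins that are late or silent. On the right arm of chromosome II it also carries the galactose genes and, further in, the phosphate genes pho84 and pho1, which are switched off in phosphate-rich medium by transcription of neighbouring non-coding RNAs.

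Because the values below turn on spaces between genes, the A+T-richest 300 bases of 4 spaces are printed, 5′ to 3′ on the plus strand, from the RefSeq sequence of ASM294v3 by that assembly's own gene positions. The first 3 spaces had the largest differences between the strains and the last had the smallest. Capitals mark runs of at least 6 A or 6 T, which were searched as AAAAAA and TTTTTT, the same motif on both strands. The stretches lie at chrII:4490474-4490773, chrII:4455048-4455347, chrII:4419738-4420037 and chrII:4446658-4446957.
gal1 to SPBPB2B2.14c: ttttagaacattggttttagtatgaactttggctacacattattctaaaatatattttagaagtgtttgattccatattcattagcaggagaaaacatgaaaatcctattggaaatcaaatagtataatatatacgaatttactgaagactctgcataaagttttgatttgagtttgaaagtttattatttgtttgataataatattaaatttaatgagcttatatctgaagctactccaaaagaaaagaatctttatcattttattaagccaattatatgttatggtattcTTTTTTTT
fub2 to nrg1: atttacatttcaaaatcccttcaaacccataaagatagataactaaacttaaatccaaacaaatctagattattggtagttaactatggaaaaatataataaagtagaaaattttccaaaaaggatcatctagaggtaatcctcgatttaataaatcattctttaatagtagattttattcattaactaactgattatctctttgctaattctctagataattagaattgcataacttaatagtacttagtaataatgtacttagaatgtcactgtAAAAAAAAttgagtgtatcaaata
Tf2-11 to pfl5: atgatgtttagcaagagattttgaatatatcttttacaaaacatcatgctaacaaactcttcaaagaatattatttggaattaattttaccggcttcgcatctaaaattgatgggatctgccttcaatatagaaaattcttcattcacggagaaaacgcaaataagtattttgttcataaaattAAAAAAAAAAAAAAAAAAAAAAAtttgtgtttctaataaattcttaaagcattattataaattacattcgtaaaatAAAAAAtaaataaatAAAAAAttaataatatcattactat
pho84 to pho1: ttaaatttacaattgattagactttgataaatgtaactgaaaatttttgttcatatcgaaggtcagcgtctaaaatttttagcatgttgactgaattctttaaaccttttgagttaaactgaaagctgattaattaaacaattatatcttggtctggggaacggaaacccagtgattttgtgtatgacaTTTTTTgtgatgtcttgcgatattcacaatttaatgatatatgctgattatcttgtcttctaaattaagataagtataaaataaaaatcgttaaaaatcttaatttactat
Their A+T content was 76.3%, 76%, 79% and 73.7% in the order printed. Of the genome's 1556 measured spaces (at least 2 probes) of at least 300 bases, 23.7%, 26.1%, 10.8% and 50.2% held a stretch at least as rich. The tract motif is common: it occurred in the richest stretch of 82.8% of those spaces, with a median of 2 tracts, and the printed stretches hold 1, 1, 3 and 1. The stretch between pho84 and pho1 also lies within the non-coding RNA gene nc-pho1. The 22 measured spaces of the end had a median of 74.5% in their richest stretch, against 73.7% over those 1556 spaces.

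All values are the log2 ratio of IP to input, with each array's median probe set to 0. A rise or fall is therefore relative to the rest of the genome, and a change shared by all of it would not show. The arrays include no mock IP. The share of probes well above background was 99.07% to 99.94% for input and 95.3% to 99.4% for IP. Within the end no probe was dim on every array of a strain in either channel. Precision is limited by having 3 arrays per strain. Between WT arrays the 324 values correlated at 0.47 to 0.59, and between rad3Δ arrays at 0.66 to 0.70. Whether replicates came from separate cultures is not in the labels, so the p-values rest on a spread between samples that may be technical only. Each replicate number was 1 slide, with WT always at position 2 and rad3Δ always at position 4, so strain and slide position cannot be told apart. Replicate 3 of both strains stood apart by design: its IP was in the red dye where it was green on replicates 1 and 2, it used cyanine in place of Alexa dyes, and for rad3Δ its input was labelled cdc25-23. Differences between the strains that rest on it are given with and without it, while counts of levels above or below the median are given with all arrays only. The study's question, as the title puts it, is how RPA lay along the genome with and without Rad3.

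Over the whole end, RPA was near the genome's median in WT and well above it in rad3Δ. The mean of the 324 probes was -0.016, 0.051 and -0.22 on the WT arrays and 0.50, 0.56 and 0.65 on the rad3Δ arrays. The lowest rad3Δ array thus lay well above the highest WT array. The means were -0.060 ± 0.14 and 0.57 ± 0.076 (SD, n = 3 per strain), and the difference of 0.63 ± 0.068 (SE; limma adjusted p = 0.000871) is 1.55-fold. It was 0.52, 0.51 and 0.87 on slides 1, 2 and 3. An exact permutation test of 3 against 3 arrays gave p = 0.1, the smallest it can give. Like the other exact tests here, it did not keep the arrays of a slide paired. Of the 125 windows of 100 kb in the genome, 34.4% were called higher in rad3Δ and 34.4% lower. The end had the 3rd largest rise of these windows, also under each of the alternative settings run. The right end of chromosome I (0.93) and the left-most window of chromosome I (0.93, from 96 probes) ranked above it. The fitted rad3Δ level of 0.56 was the highest of the 125 windows, closely followed by 0.55 at the right end of chromosome I, which by plain means was 0.58 against 0.57. The fitted WT level of -0.069 ranked 82nd and did not differ from the median by the test (limma adjusted p = 0.244). Without replicate 3 of both strains the difference was 0.51 (adjusted p = 2.85e-05). With normexp background correction of the raw median spot signals, in place of the array software's processed signals, it was 0.45 and did not pass (limma adjusted p = 0.153). That setting also leaves out the software's detrending and dye scaling, so it changes more than the background step.

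**Figure D1:**
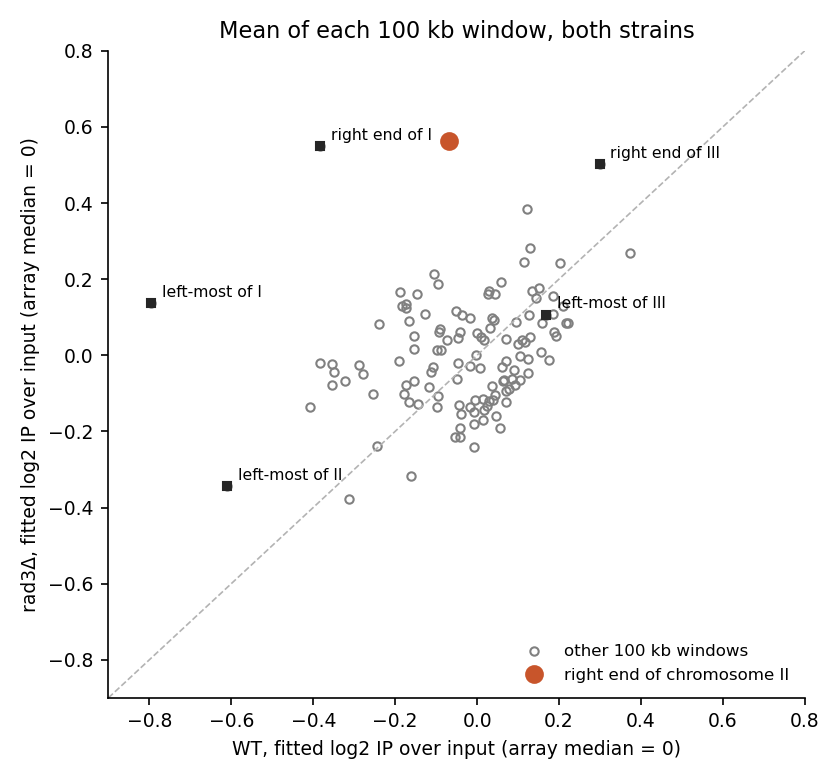
Fitted log2 IP over input of WT (x) and rad3Δ (y) in each of the 125 windows of 100 kb; squares mark the outermost windows of the 3 chromosomes and the dashed line marks equal values. The right end of chromosome II lies at -0.069 in WT and 0.56 in rad3Δ, the highest fitted rad3Δ value, beside the right end of chromosome I. The left-most windows of chromosomes I and II hold 96 and 211 probes, fewer than the left ends described in the text.

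The 2 ends of chromosome II differed. The mean of the left end, 310 probes, moved from -0.40 ± 0.18 in WT to -0.053 ± 0.14 in rad3Δ, so it rose by 0.34 to near the median. That mean was not even along the left end. The left-most window of 100 kb, with 211 of these probes, stayed at a fitted -0.34 in rad3Δ (limma adjusted p = 9.76e-05). It ranked 124th of the 125 windows there. The right end exceeded the left by 0.28, 0.34 and 0.39 on the WT arrays and by 0.42, 0.60 and 0.85 on the rad3Δ arrays. The excess was larger on every rad3Δ array than on any WT array, by 0.29 on average (two-sided exact permutation p = 0.1 with 3 arrays per strain). The rest of chromosome II moved by 0.053. Set against the right end of chromosome I, the right end of chromosome II was higher in WT by 0.29 ± 0.089 and level with it in rad3Δ (-0.0073 ± 0.054). Its rise was thus smaller by 0.30, again without overlap between the arrays (exact permutation p = 0.1). The difference in rise was -0.15 against the left end of chromosome I, 206 probes (exact permutation p = 0.2), where the arrays overlapped. It was 0.64 and 0.43 against the left and right ends of chromosome III, which border the ribosomal DNA (both exact permutation p = 0.1). These were 5 comparisons of ends, and none could pass a correction, since 0.1 is the smallest p the design allows.

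By distance from the last probe, the rise in rad3Δ covered the whole interval, with 1 dip among the windows of 10 kb. At a finer scale, SPBC8E4.04 (0.26) and the spaces on either side of it (0.34 and 0.37), about 58 to 60 kb in, did not pass. All 10 windows of 10 kb were called higher in rad3Δ, where 20.4% of 1231 windows in the genome were, and 0 lower (9.18% of all). In 9 of them every rad3Δ array exceeded every WT array (20.3% of all). In rad3Δ 9 of the 10 were above the median (34.2% of all), and in WT 2 were above it (31.8% of all) and 3 below (29.1% of all). Differences ran from 0.30 to 0.92. The outermost window, 0 to 10 kb, which holds gal7, gal10 and gal1, stood at -0.24, -0.14 and -0.52 on the WT arrays and at 0.45, 0.59 and 0.39 on the rad3Δ arrays. It was below the median on every WT array and above it on every rad3Δ array, a difference of 0.78 ± 0.076 (SE; limma adjusted p = 9.85e-05). The window at 70 to 80 kb, beside Tf2-11 and pfl5, showed the largest difference, 0.92 ± 0.10 (SE; limma adjusted p = 0.00012), with 0.12, 0.17 and -0.049 on the WT arrays and 0.91, 0.83 and 1.25 on the rad3Δ arrays. In level it was also the highest of the 10 in rad3Δ. The window at 30 to 40 kb, with fub2 and nrg1, rose by 0.83 ± 0.11 (SE; limma adjusted p = 0.000212).

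The dip lay at 40 to 50 kb, over pho84 and pho1. That window stood at 0.25, 0.49 and 0.036 on the WT arrays and at 0.46, 0.61 and 0.62 on the rad3Δ arrays. It was the highest of the 10 windows in WT by plain mean, 0.26 ± 0.23, and not low in rad3Δ, 0.56 ± 0.087. The arrays of the strains overlapped there, and the difference was 0.30 ± 0.099 (SE; limma adjusted p = 0.0392). That call was lost without WT replicate 1 (0.28), without replicate 3 (0.17), without the dye term and with normexp (-0.035). The innermost window, 90 to 100 kb, was the lowest in both strains, -0.44 ± 0.23 in WT and 0.085 ± 0.073 in rad3Δ, yet rose by 0.52. Further in, from 100 to 200 kb, 5 of 10 windows were called higher, with a median difference of 0.22 against 0.65 within the end. The window next to the end, at 100 to 110 kb, did not pass, at 0.15 ± 0.074 (SE; limma adjusted p = 0.131).

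**Figure D2:**
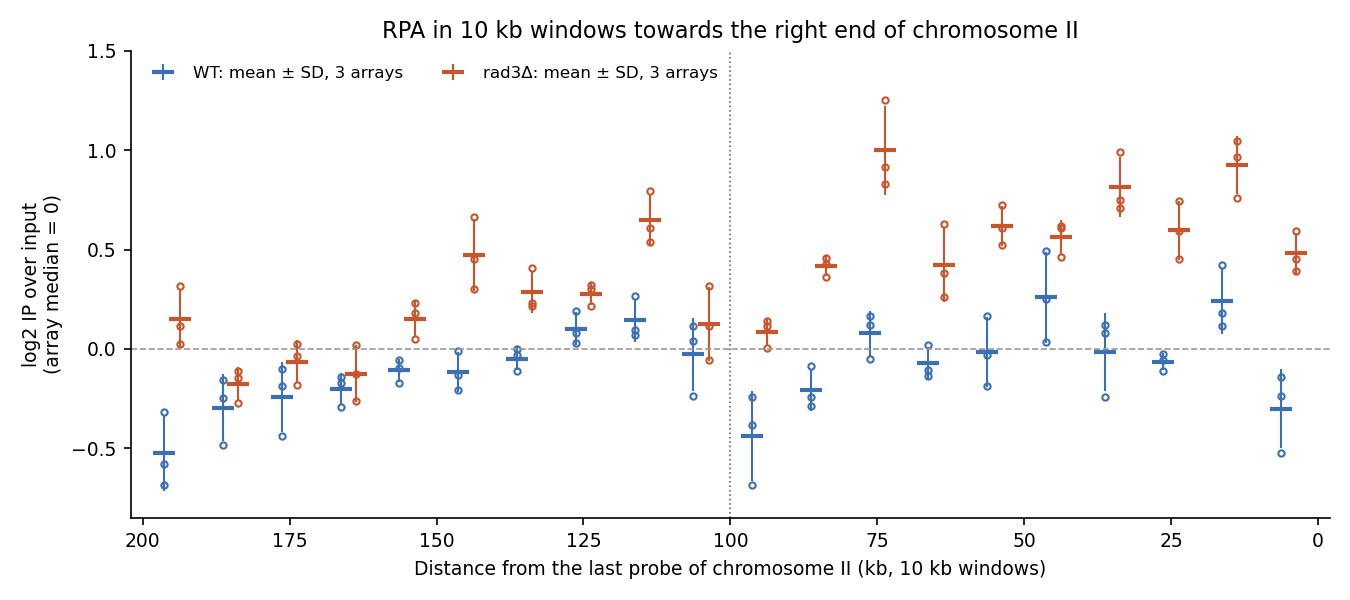
Log2 IP over input in 10 kb windows over the last 200 kb (x, distance from the last probe in kb); circles are single arrays, bars the mean and lines the SD of 3 arrays per strain, and the dotted line marks the inner border of the end. To its right the strains overlap in the window at 40 to 50 kb and in no other.

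The single probes gave the same picture at finer scale. In the end 308 of 324 probes had a positive difference, from -0.19 to 1.78 with a median of 0.62, where the median of all probes was -0.036. The test called 76 of them higher in rad3Δ (3.52% of all probes were) and 0 lower (0.0844% of all), with 227 higher and 0 lower at an unadjusted p under 0.05. The genome's share at an unadjusted p under 0.05 was not taken, so unadjusted counts here and below describe the end alone. The arrays of rad3Δ all lay above those of WT at 190 probes (10.6% of all). In WT 25 probes were above the array median (12.8% of all) and 56 below it (16% of all). In rad3Δ 183 were above (17.2% of all) and 4 below (17.6% of all). With the replicate number, that is the slide, as a block, 131 were higher. Without replicate 3 of either strain 0 passed, with 122 higher and 0 lower unadjusted, and with normexp 0 passed, with 72 higher and 0 lower unadjusted.

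**Figure D3:**
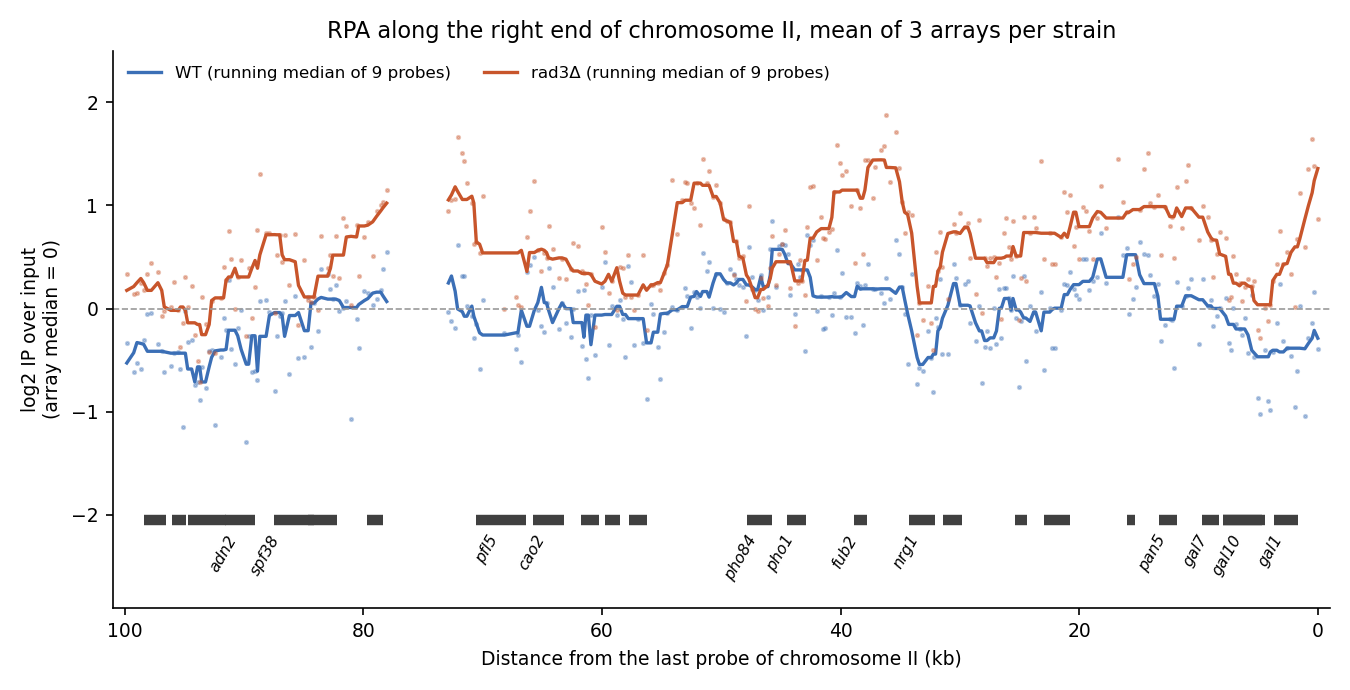
Log2 IP over input of each probe (points, mean of 3 arrays) and the running median of 9 probes (lines) by distance from the last probe in kb, with the measured genes as bars and some of them named. The lines meet at pho84 and pho1 and part elsewhere, most at the last probes beyond gal1, beside fub2 and beside pfl5.

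Among the 27 measured genes, 21 were higher in rad3Δ (9.85% of 4152 genes were) and 0 lower (1.28% of all), with 24 higher and 0 lower at an unadjusted p under 0.05. In 21 every rad3Δ array exceeded every WT array (15.4% of all). The median difference was 0.53, against -0.037 over all genes. With all arrays, gene bodies were low in WT: 0 of the 27 were above the median (19.8% of all) and 13 below it (25.3% of all). In rad3Δ 14 were above (24.4% of all) and 1, uap1, below (28% of all). These counts of levels are not given without replicate 3 of both strains, where the WT level of the whole end was 0.018 in place of -0.069. Counts of called genes leaned on single arrays. They fell to 2, gal1 and SPBPB2B2.06c, when replicate 3 was left out in either strain or both, and to 13 without rad3Δ replicate 2. With normexp 0 genes passed, with 11 higher and 0 lower unadjusted, so every gene call below ends there.

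The galactose genes are the last measured genes of the chromosome, and all 3 were called higher, where 77.8% of the genes of the end and 9.85% of all genes were. gal1, the galactokinase gene (4488298 to 4490271, plus strand), stood at -0.21, -0.26 and -0.65 on the WT arrays and at 0.45, 0.53 and 0.38 on the rad3Δ arrays. It went from below the median on every WT array to above it on every rad3Δ array, by 0.83 ± 0.11 (SE; limma adjusted p = 0.00145). gal7, the gene of galactose-1-phosphate uridylyltransferase (4482234 to 4483693, minus strand), stood at -0.025, 0.21 and -0.081 in WT and at 0.36, 0.88 and 0.79 in rad3Δ. It was near the median in WT, and its arrays did not overlap. Its difference was 0.64 ± 0.15 (SE; limma adjusted p = 0.0214). gal10, the epimerase gene (4484023 to 4487535, minus strand), stood at -0.35, -0.12 and -0.47 in WT and at 0.18, 0.35 and 0.0066 in rad3Δ, the lowest rad3Δ level of the 3. It overlaps tgd1, a nucleotide-sugar dehydratase gene on the other strand, and the array cannot tell the strands apart. The fits gave 0.49 ± 0.11 (SE; limma adjusted p = 0.0157) for gal10 and 0.50 ± 0.12 (SE; limma adjusted p = 0.0223) for tgd1, and nearly all of their probes are shared. The calls of gal10 and tgd1 were lost when WT replicate 1 (0.43 and 0.41), rad3Δ replicate 2 (0.44 and 0.42) or replicate 3 of both strains (0.50 and 0.51) was left out. They were also lost without the dye term (adjusted p = 0.0569 and 0.0805 by the same fit) and with medians over probes (0.38 and 0.36). That of gal7 was lost without rad3Δ replicate 2 and without replicate 3 (0.53 in each), while gal1 kept its call when any of these arrays was left out. Across the stretch from gal7 to gal1, 5 of 30 probes were called, where 23.5% of the probes of the end and 3.52% of all were. Differences over the 30 ran from 0.089 to 1.28.

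Of the genes for surface and transport proteins, pfl5, a glycoprotein gene (4421395 to 4425608), stood at -0.36, -0.24 and -0.28 on the WT arrays and at 0.22, 0.10 and 0.73 on the rad3Δ arrays. rad3Δ replicate 3 lay far above the other 2, and all 3 lay above WT. The difference was 0.64 ± 0.13 (SE; limma adjusted p = 0.0103). nrg1, an amino-acid permease gene (4457695 to 4459842), was among the lowest genes of the end, at -0.44 ± 0.17 in WT and 0.040 ± 0.062 in rad3Δ. It rose by 0.48 ± 0.11 (SE; limma adjusted p = 0.0211) to no more than the median. Without replicate 3 pfl5 (0.46) and nrg1 (0.41) did not pass, nor did nrg1 without WT replicate 1 (0.42) or rad3Δ replicate 2 (0.46), or with medians over probes (0.34). The other transporter gene of the end, pho84, did not pass and is described with the phosphate genes.

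Of the 3 oxidoreductase genes 2 were called, near the 77.8% of all genes of the end. pan5, which encodes a reductase of pantothenate synthesis (4478687 to 4480164), had the largest rise of all genes here. It stood at -0.37, 0.12 and -0.26 on the WT arrays and at 0.59, 0.85 and 0.99 on the rad3Δ arrays. The strains were far apart, with a difference of 0.98 ± 0.15 (SE; limma adjusted p = 0.00348). cao2, a copper amine oxidase-like gene (4426157 to 4428738), rose by 0.53 ± 0.14 (SE; limma adjusted p = 0.0321). It was already near the median in WT (0.066 ± 0.17) and among the 5 highest genes by the mean of both strains. The aldo/keto reductase gene SPBC8E4.04 (4432247 to 4433428) did not pass, at 0.26 ± 0.12 (SE; limma adjusted p = 0.181), with 3 probes. Without replicate 3 pan5 (0.85) and cao2 (0.37) did not pass, and cao2 also not without WT replicate 1 (0.49), without rad3Δ replicate 2 (0.52) or without the dye term (adjusted p = 0.106 by the same fit).

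fub2 and SPBC1289.14 reached the highest gene levels in rad3Δ. fub2, of a proteasome regulator family (4453078 to 4454161), stood at 0.042, 0.35 and -0.21 on the WT arrays and at 0.86, 0.66 and 1.20 on the rad3Δ arrays, and differed by 0.85 ± 0.17 (SE; limma adjusted p = 0.0113). SPBC1289.14, annotated as an adducin (4412241 to 4413599), went from 0.17 ± 0.21 to 0.87 ± 0.18. It was thus the highest gene by the mean of both strains, and rose by 0.70 ± 0.13 (SE; limma adjusted p = 0.0086). SPBPB2B2.06c, a predicted extracellular nucleotidase gene (4469018 to 4471164), moved from -0.048 ± 0.063 to 0.73 ± 0.19, a rise of 0.77 ± 0.11 (SE; limma adjusted p = 0.00247). Without replicate 3 fub2 (0.57) and SPBC1289.14 (0.53) did not pass, while SPBPB2B2.06c did (0.68). By the mean of both strains these 3, cao2 and gal7 were the 5 highest genes.

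The 5 lowest genes by the mean of both strains were uap1, tim21, rpc40 and ppr8 at the inner side, and nrg1. uap1, of UDP-N-acetylglucosamine synthesis (4397274 to 4399305), stood at -0.45, -0.57 and -0.78 on the WT arrays and at -0.25, -0.17 and -0.19 on the rad3Δ arrays. It stayed below the median on all 6 arrays although it rose by 0.39 ± 0.11 (SE; limma adjusted p = 0.0404). rpc40, a subunit gene shared by RNA polymerases I and III, rose by 0.53 ± 0.12 (SE; limma adjusted p = 0.0181) from -0.52 ± 0.20 to the median (0.0067 ± 0.035). ppr8, a PPR-repeat protein gene, rose by 0.50 ± 0.11 (SE; limma adjusted p = 0.016). tim21, a mitochondrial import gene with 3 probes, stood at 0.093, -0.79 and -0.99 in WT and 0.20, 0.034 and -0.16 in rad3Δ. WT replicate 1 lay far above the other 2, the strains overlapped, and the difference of 0.59 ± 0.20 (SE; limma adjusted p = 0.0852) did not pass. It passed with the replicate number as a block, as did SPBPB2B2.08, and without WT replicate 1 (0.88). Between these low genes and the rest lay spf38, a spliceosomal U5 subunit gene (4404430 to 4405886), which rose by 0.70 ± 0.13 (SE; limma adjusted p = 0.00739), from -0.29 ± 0.17 to 0.42 ± 0.19. Without replicate 3 uap1 (0.30), rpc40 (0.46), ppr8 (0.40) and spf38 (0.55) did not pass, and uap1 also not without WT replicate 2 (0.39), rad3Δ replicate 1 (0.44) or rad3Δ replicate 2 (0.40). Without the dye term ppr8 and uap1 were lost (adjusted p = 0.125 and 0.0921 by the same fit), and with bright probes alone rpc40 (0.41) and uap1 (0.36).

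The phosphate genes were the exception in the end. pho84 was named by its list, while pho1 and the space between them were chosen after their values were seen. pho84, the phosphate transporter gene (4444101 to 4446200), stood at 0.14, 0.57 and 0.11 on the WT arrays and at 0.055, 0.34 and 0.35 on the rad3Δ arrays. pho1, the secreted acid phosphatase gene (4447506 to 4449053), stood at 0.0078, 0.63 and -0.075 in WT and at 0.12, 0.32 and 0.25 in rad3Δ. In both genes WT replicate 2 was higher than every other array, and the strains overlapped. The differences were -0.024 ± 0.15 (SE; limma adjusted p = 0.928) and 0.043 ± 0.16 (SE; limma adjusted p = 0.88). The space between them was above the median on all 6 arrays, at 0.79, 0.65 and 0.31 in WT and 0.59, 0.76 and 0.36 in rad3Δ. It did not pass the test for a difference, at -0.011 ± 0.13 (SE; limma adjusted p = 0.966), and it was above the median by the test in both strains (limma adjusted p = 0.000906 in WT and 0.000621 in rad3Δ). Over the 20 probes from pho84 to pho1, differences ran from -0.19 to 0.54, and 0 were called. With normexp the differences were -0.60 for pho84, -0.090 for pho1 and -0.29 for the space, none of which passed. The non-coding RNA gene nc-pho1, which covers most of this space and most of pho1, was at 0.38 ± 0.23 in WT and 0.36 ± 0.10 in rad3Δ. prt2, which starts upstream of pho84 and runs into it, was at 0.21 ± 0.25 and 0.34 ± 0.090. The input of the stretch moved by 0.13 from 0.43, while its IP moved by 0.12 from 0.73. Other genes that did not pass were gmh6 (0.23, adjusted p = 0.231) and SPBPB2B2.08 (0.34, adjusted p = 0.0817), by the same fit.

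The spaces between genes carried the largest rises. Of the 22 measured, 17 were higher in rad3Δ (16.2% of 1604 spaces were) and 0 lower (1.87% of all), with 21 higher and 0 lower at an unadjusted p under 0.05. In 19 every rad3Δ array exceeded every WT array (22.4% of all). The median difference was 0.69, against 0.012 over all spaces. In rad3Δ 20 of the 22 were above the median (37.2% of all), and in WT 6 were (26.8% of all). The count of higher spaces was 8 when replicate 3 was left out in either strain or both. With normexp it was 0, so every space call below ends there, with 5 higher and 0 lower unadjusted. With the replicate number as a block it was 20, adding the spaces between pfl5 and cao2, between SPBC8E4.04 and SPBC8E4.03, and between SPBPB2B2.07c and SPBPB2B2.08.

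The largest rise of all was at the very last probes. The space beyond gal1, towards SPBPB2B2.14c, held 6 probes and stood at -0.18, -0.0019 and -0.65 on the WT arrays and at 1.14, 1.21 and 1.14 on the rad3Δ arrays. The 3 rad3Δ arrays were close together and far above WT, with a difference of 1.44 ± 0.14 (SE; limma adjusted p = 4.55e-05), or 2.71-fold. The space ends beyond the last probe, so only its inner part was measured. The space between fub2 and nrg1, with 12 probes, stood at 0.32, 0.22 and 0.0081 in WT and at 1.23, 1.09 and 1.61 in rad3Δ. It was the highest space of the end in rad3Δ by plain mean, and differed by 1.13 ± 0.16 (SE; limma adjusted p = 0.000274). The space between Tf2-11 and pfl5, with 9 probes, stood at 0.085, 0.12 and -0.010 in WT and at 1.11, 0.93 and 1.47 in rad3Δ, a difference of 1.105 ± 0.15 (SE; limma adjusted p = 0.000192). In these last 2 spaces rad3Δ replicate 3 was the highest array. All 3 remained called without replicate 3, at 1.27, 0.89 and 0.92. Their A+T-richest stretches are printed above.

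Next in order came the space between the divergent genes adn2 and spf38, which rose by 0.98 ± 0.14 (SE; limma adjusted p = 0.000297), and that between pan5 and gal7, which rose by 0.95 ± 0.14 (SE; limma adjusted p = 0.000437). The space between SPBPB2B2.05 and SPBPB2B2.06c rose by 0.95 and that between pho1 and fub2 by 0.82 (limma adjusted p = 0.000292 and 0.00255). The last of these was lost without replicate 3 (0.58). The space between the divergent genes gal10 and gal1, with 3 probes, had the lowest ratio of the spaces in both strains. It stood at -0.52, -0.77 and -1.01 on the WT arrays and 0.19, 0.13 and -0.13 on the rad3Δ arrays. It rose by 0.83 ± 0.13 (SE; limma adjusted p = 0.000575), but only to the median, while the spaces on either side of the galactose genes reached 1.01 and 1.16. Its log2 input was the highest of the spaces, 0.83 in WT and 0.84 in rad3Δ. Its log2 IP in rad3Δ, 0.87, equalled that between pan5 and gal7, 0.87, where the input was -0.099. How much of its low ratio the input accounts for was not tested. By gene orientation, 3 of 5 convergent, 5 of 6 divergent and 9 of 11 tandem spaces were higher, where 16%, 20.2% and 12.3% of all spaces of those classes were.

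**Figure D4:**
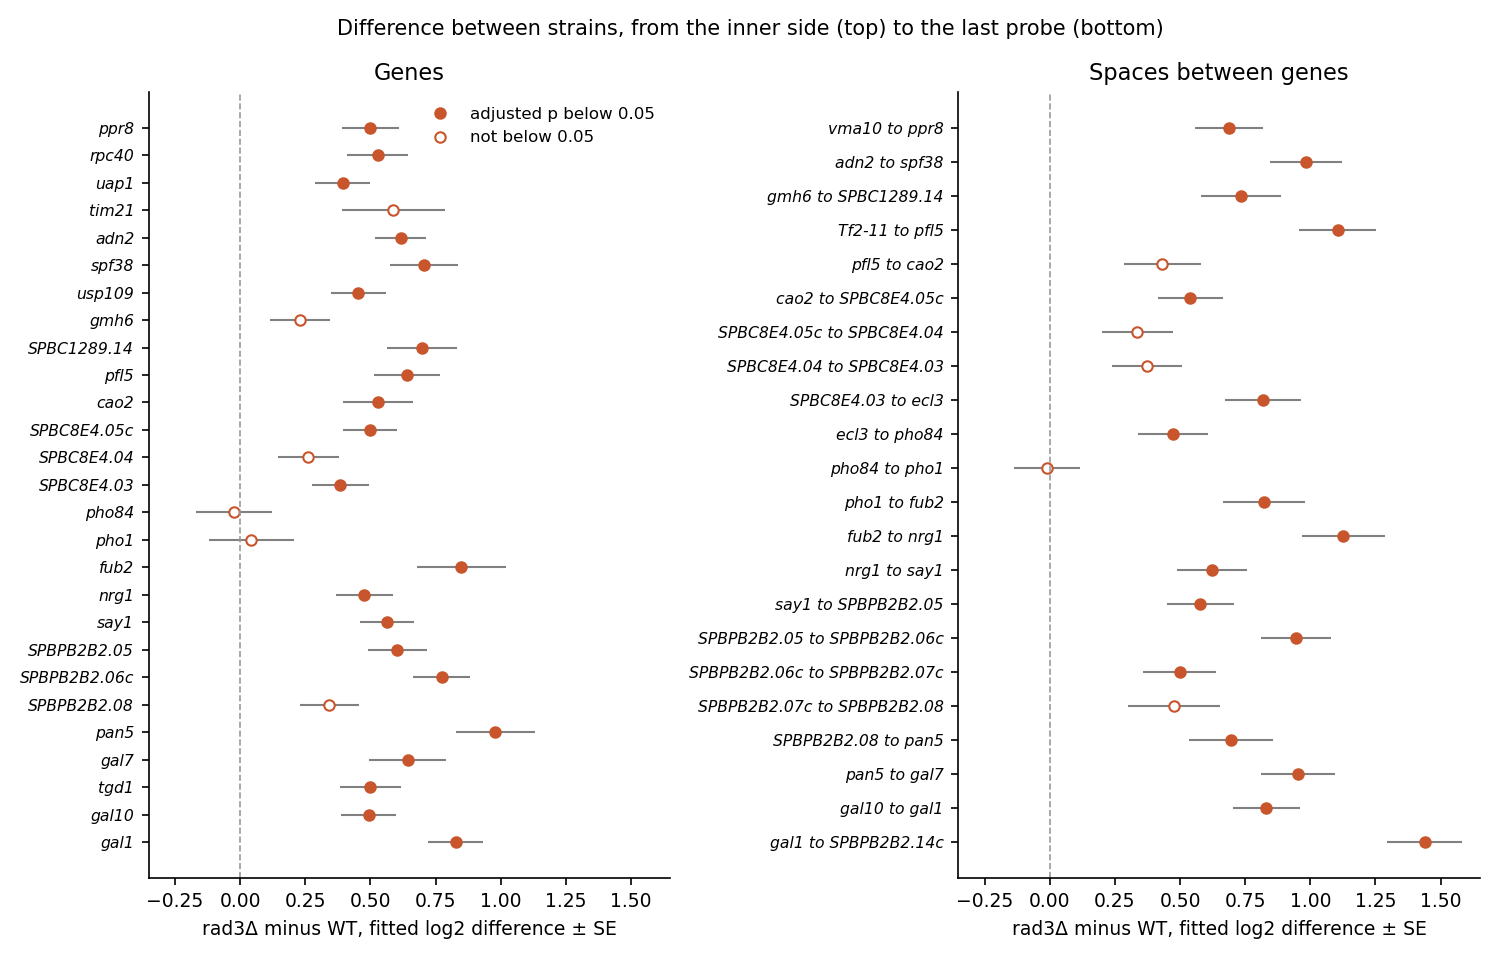
Fitted log2 difference, rad3Δ minus WT, with its SE for the 27 genes (left) and 22 spaces (right), ordered from the inner side to the last probe; filled points passed the test. pho84, pho1 and the space between them lie near 0, and the last space lies highest at 1.44.

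Spaces stood above genes in both strains, and more so without Rad3. The mean of space probes minus that of gene probes was 0.28, 0.22 and 0.19 on the WT arrays and 0.48, 0.41 and 0.50 on the rad3Δ arrays. The arrays did not overlap, and the excess grew by 0.23 (exact permutation p = 0.1, n = 3 per strain). Over the whole annotated genome it went from 0.075 ± 0.017 to 0.23 ± 0.023. Of the 162 probes in genes 19 were called higher, with a median difference of 0.52, and of the 162 between genes 57, with a median of 0.74. Of all probes in the genome 3.52% were, and that share was not split into probes in genes and between genes. Without replicate 3 or with normexp 0 probes of the end were called. The measured spaces here were long: their median length was 1786 bp, against 901.5 bp for measured spaces in the genome. The longest, between SPBC8E4.03 and ecl3, was 5605 bp. Their G+C content was not unusual, at a median of 30.9% against 31.4%, nor was that of the genes, at 36.8% in both. The end as a whole had 34.1% G+C against 35.9% for chromosome II.

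A+T-rich islands, here stretches of 500 bp windows with at least 75% A+T, numbered 4 in the end of 174 on chromosome II, close to the 3.83 per 100 kb of that chromosome. All 4 lay between genes. Probes within 500 bp of the island beside pfl5 went from 0.16 ± 0.069 to 1.32 ± 0.35, and those by the island between SPBC8E4.03 and ecl3 from 0.25 ± 0.17 to 1.16 ± 0.25. The island between pho1 and fub2 went from 0.13 ± 0.27 to 1.16 ± 0.25, and the one beside SPBPB2B2.06c from -0.18 ± 0.091 to 0.75 ± 0.11. All rad3Δ arrays exceeded all WT arrays at each, as they did at 86.4% of the measured spaces of the end and 22.4% of all measured spaces. Values at islands outside the end are not given here. The spaces beyond gal1 and between fub2 and nrg1, with the largest rises, hold no such island.

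Neighbouring probes called higher, at least 3 in a row and no more than 1000 bp apart, formed 8 runs of 143 in the genome and covered 9.3 kb. These runs were picked by the difference, so their values are a description. None of the 8 remained without replicate 3 of either strain or both, or with normexp, where 0 probes were called. The widest, 2636 bp from within gal1 to the last probe, went from -0.41 ± 0.28 to 0.85 ± 0.075. The next, 2297 bp between fub2 and nrg1, went from 0.27 ± 0.11 to 1.46 ± 0.30. A run within pan5 was the only one that lay wholly in a gene. Runs above the array median covered 2.63 kb in WT, in 4 runs of 412, and 39.3 kb in rad3Δ, in 20 runs of 668. The longest of these in rad3Δ was 4.51 kb. Runs below the median numbered 6 in WT, of 529 in the genome, and 0 in rad3Δ, of 633.

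Both channels moved, the IP more than the input. Log2 input signal of the end, centred on the array median, was -0.19, -0.10 and -0.10 on the WT arrays and 0.0028, 0.10 and 0.0015 on the rad3Δ arrays. Every WT array was below the median and every rad3Δ array at or above it, a difference of 0.17 (exact permutation p = 0.1, n = 3 per strain). Log2 IP signal was -0.25, -0.062 and -0.33 on the WT arrays and 0.44, 0.64 and 0.63 on the rad3Δ arrays. It rose by 0.78 without overlap (exact permutation p = 0.1). The log2 ratio is the log2 IP less the log2 input. Spaces had less input than genes in WT, at -0.24 ± 0.14 against -0.0061 ± 0.049, and in rad3Δ, at -0.022 ± 0.12 against 0.12 ± 0.019. Lower input by itself raises a ratio, and how much of the excess of spaces over genes it accounts for was not tested. By window, input differences ran from 0.028 to 0.25 and IP differences from 0.45 to 1.15, and in each of the 10 windows the IP moved further.

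**Figure D5:**
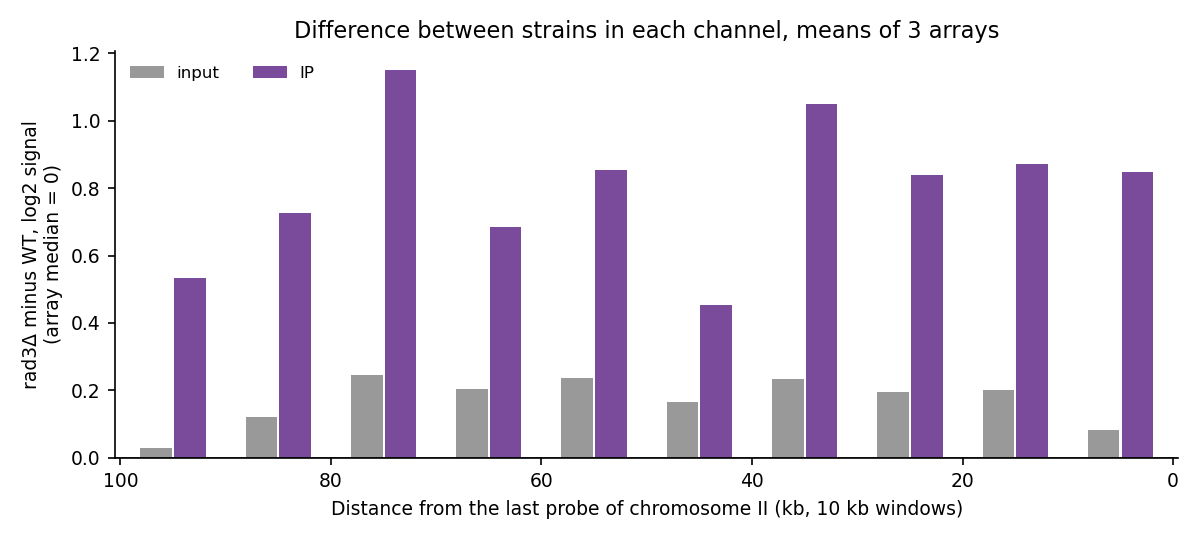
Difference between strains, rad3Δ minus WT, in log2 input (grey) and log2 IP (purple) signal for the 10 windows of 10 kb, by distance from the last probe in kb; bars are differences of means of 3 arrays. The IP bar exceeds the input bar in every window and is shortest at 40 to 50 kb.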

How the data were processed

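RPA was measured on 6 two-colour Agilent arrays, 3 per strain, grouped by their titles. The authors deposited spot intensity files from Agilent Feature Extraction. Its release was 10.7.1.1 for replicate 1 of each strain and 10.7.3.1 for the other arrays, per the file headers, while the submitters' processing notes name only 10.7.3.1. Per the file headers, processed intensities were background-subtracted, detrended and dye-scaled linearly, and the deposited log10 ratio is red over green. The authors' deposited ratio matrix equalled IP over input within 0.01. The labels' protocols speak of RNA.

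Control and flagged spots were left out. limma 3.58.1 (R 4.3.3) fitted a mean per strain and a dye term to median-centred log2 ratios over all features of a kind, two-sided, adjusted by Benjamini-Hochberg over the genome at 0.05, with 5.05 to 9.15 prior and 3 residual degrees of freedom; it was tested on simulated data. Python 3.11.15, pandas 2.3.3, numpy 2.4.6, scipy 1.17.1 and matplotlib 3.10.9 did the rest. Genes and spaces needed 2 probes, windows 5 (10 kb) or 50 (100 kb). Positions follow the headers' build, Spombe:NCBI:Feb2002. In the end, probe lengths tracked the G+C content of ASM294v3 best at an offset of 1 bp (correlation -0.50), so its genes were used, except on chromosome I from 3722495. Slides pair the replicates: deviations correlated at 0.36 to 0.48 within a slide. Alternatives were normexp on raw median signals (without detrending or dye scaling), the authors' matrix, the dye term, the slide block, arrays left out, bright probes, mode centring and medians.

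Named items were the 8 largest rises of genes and of spaces, the 5 highest and lowest genes by both strains' mean, the 3 genes nearest the last probe, and lists by name or product; no listed iron or hexose gene lay here. The members and lists were chosen with earlier results of these data known.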

Additional observations from a re-analysis of the deposited data

How the results depend on the processing

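The mean of the end kept its direction under every alternative, from 0.45 with normexp to 0.68 without WT replicate 2, and 0.51 to 0.68 with an array left out. With normexp it did not pass, nor did the rad3Δ level of 0.40, and 0 probes, 0 genes, 0 spaces and 0 windows of 10 kb were called. The cause was not tested. With an array left out, called probes ranged from 0 to 79, genes from 2 to 19, spaces from 8 to 20 and windows from 9 to 10, the lowest without replicate 3 of either strain or of both. These 3 settings give the same differences by construction, since the dye term takes up a lone replicate 3. Without the dye term 45 probes, 14 genes, 15 spaces and 9 windows were called, with medians over probes 16 genes, 16 spaces and 10 windows, and with the replicate number as a block 131, where no call of a gene, space or window was lost. The WT level of the end, -0.069, passed below the median when centred on the mode (-0.13) and without rad3Δ replicate 3 (-0.099), and turned to 0.079 without WT replicate 3 and 0.018 without replicate 3 of both; with an array left out it ranged from -0.12 to 0.079.

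Signs turned only for values that were not called, or were called weakly. pho84 moved to -0.60 with normexp (adjusted p = 0.496), turned to 0.020 when centred on the mode and ranged from -0.16 to 0.14 with an array left out. pho1 turned to -0.0035 with medians over probes and -0.090 with normexp, and ranged from -0.098 to 0.26 with an array left out. The space between them moved to -0.29 with normexp (adjusted p = 0.689), turned to 0.033 when centred on the mode and 0.093 with medians, and ranged from -0.049 to 0.046 with an array left out. With normexp the window at 40 to 50 kb turned to -0.035, SPBPB2B2.08 to -0.067 and the space between pfl5 and cao2 to -0.094. The authors' matrix gave 20 genes, 17 spaces and 10 windows, and bright probes alone 17, 17 and 10. With 3 arrays a strain, exact tests cannot go below 0.1.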

Other observations

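The long non-coding RNA gene nam3, at 4464625 to 4466286 on the minus strand, stood at 0.18, 0.0012 and -0.17 on the WT arrays and at 0.36, 0.58 and 0.50 on the rad3Δ arrays, over 8 probes. The strains did not overlap there, and the gene lies in the space between say1 and SPBPB2B2.05, whose own difference was 0.58. The reference lists 10 long terminal repeats of retrotransposons in the end, of which 5 held a probe.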
